A study of Sus scrofa with 4 samples.

Results

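Fatty acid oxidation was followed through 9 named genes on 4 porcine oligonucleotide arrays, and 8 of the 9 had at least 1 probe. They comprised the carnitine palmitoyltransferases CPT1A, CPT1B and CPT2, the acyl-CoA dehydrogenases ACADL and ACADM, the peroxisomal enzymes ACOX3 and ACAA1, and the pyruvate dehydrogenase kinase PDK4. ACADVL, the very long-chain acyl-CoA dehydrogenase, had no probe under this name and was not analysed here. A probe was taken where the array's gene name was that of the gene, which gave 35 of 43603 probes, and the 8 genes were among 34853 gene names. CPT1A had 6 probes, CPT1B 3, CPT2 1, ACADL 6, ACADM 7, ACOX3 1, ACAA1 2 and PDK4 9.

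Each array held 1 condition. PIP cells are a preadipocyte cell line from the marbled muscle of a pig, used between passages 26 and 35 and kept in medium with 10% serum. The pMA were PIP cells that had been confluent for 4 days and then received differentiation medium for 4 days, with 50 ng/mL insulin, 0.25 µM dexamethasone, 2 mM octanoate, 200 µM oleate and 10% serum. The other arrays held pMA given 100 µM serotonin for 12 h, a dose written in the labels as an amount per ml, and pMA given 2.5 µg/mL TNF-α for 12 h. All pMA conditions therefore carried octanoate and oleate, both substrates of fatty acid oxidation, and dexamethasone and insulin, whereas the labels describe none of these in the growth medium of PIP cells. RNA of a group was pooled before labelling, so each array was 1 pool of 1 cell line, no difference between conditions had a replicate, and no p-value was calculated.

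Long-chain fatty acids are burned in mitochondria after the carnitine shuttle has carried them through the mitochondrial membranes. CPT1 enzymes on the outer membrane load the fatty acid onto carnitine, and this is the step that malonyl-CoA inhibits, while CPT2 on the inner membrane returns it to coenzyme A. Acyl-CoA dehydrogenases then start each turn of β-oxidation, and peroxisomes run a parallel pathway that opens with acyl-CoA oxidases. PDK4 phosphorylates and inactivates pyruvate dehydrogenase, which spares glucose when fatty acids are the fuel, and in many tissues its gene responds to fasting, glucocorticoids and PPAR ligands.

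The probes were 60 bases long, and stretches of 30 bases are given here as printed in the files. ACAA1 was represented by the same sequence under 2 probe names, so that its probes are a technical repeat. The stretch below is its beginning, in lower case because no part of it is singled out.
ACAA1, start at base 1546 of the transcript: tagtaaatgtgttgtcttagtggatgggct
Another pair of probes, on PDK4, began 1 base apart, and their ends are shown because they give the noise between nearly equal probes. Capitals mark the longest run of bases present in both of these ends.
PDK4, start at base 2575: taatgCATGAAAGCTGAAATGCATACGaac
PDK4, start at base 2576: aatCATGAAAGCTGAAATGCATACGgaact
CPT1A and CPT1B encode related enzymes, and the closest of their probes were aligned over 57 bases, of which 39 were identical (68.4%). In the 30 bases shown, capitals mark the 20 identical positions, and the differences show how far a CPT1A probe is from the CPT1B sequence.
CPT1A, start at base 1374: AaTCgTTCACgtTtATtGtcTTCAAaAAcG
CPT1B, start at base 1360, shown from the fourth base of the probe: AgTCcTTCACccTcATcGcgTTCAAgAAtG

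A level is the log2 of a probe's processed intensity over the 75th percentile of its array, so that 0 stands for a probe at that percentile. Levels of different probes are not compared with each other, except that those of a marker list are summed on the linear scale. The 75th percentile lay between 479 and 566 intensity units, and 56.5% of the spots in PIP cells, 56.5% in pMA, 60.9% after serotonin and 66.0% after TNF-α were well above background. Errors written after ± are those of the scanner's own error model carried into the ratio. Where an array carried the same probe in several spots, these had a pooled standard deviation of 0.11 to 0.15 on the log2 scale. Probes of the same gene differed more in differentiation, by a pooled standard deviation of 0.36 over 2229 genes, than after serotonin (0.21) or TNF-α (0.18). These values cover the array and the probe, not the spread between cultures.

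The culture was checked against 6 lists of cell type markers. Of 12 adipocyte markers, 11 were on the array and 8 were well above background on all 4. In differentiation 10 had a ratio, with a median of 0.34 on the log2 scale, beside 0.12 over all gene names. By their brightest probes 3 of them rose at least 2-fold, CD36 by 5.17, CIDEC by 3.87 and FABP4 by at least 3.08. Over its probes CD36 ran from 1.19 to 5.17 and CIDEC from 0.75 to 3.87, so whether CIDEC is counted depends on the probe. At the brightest probe the others of the 10 had a ratio or a lower bound under 2-fold. Among them were LPL at 0.37, GPD1 at 0.24 and PNPLA2 at -0.28. ADIPOQ, which encodes adiponectin, stood well above background in PIP cells but not in pMA, at levels of -4.53 and -4.83. The faintest such signals of these arrays were -5.13 and -4.64, and the bound on its change was only -0.10. PLIN1, the coat protein of lipid droplets, stood well above background on no array. Of the markers of other cells, 6 of 7 preadipocyte and fibroblast, 7 of 10 muscle, 2 of 5 endothelial, 2 of 3 macrophage and 1 of 4 epithelial genes were well above background on all 4 arrays. Those present included MYOG, PAX7, DES, PECAM1, KDR, CD14, AIF1 and KRT8. Those on no array were MYOD1, MYF5, CDH5, TEK, CD163 and KRT18. ACTA1, skeletal actin, had a level of 9.33 in pMA. In differentiation all 8 muscle markers with a ratio or a bound were higher, with a median of 0.64. By their brightest probes none of these passed 2-fold. Of the preadipocyte and fibroblast markers 4 were higher and 2 lower, with a median of 0.07. A positive median in differentiation was thus not particular to the adipocyte list.

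In differentiation, 3 of the 8 genes rose at least 2-fold and none fell. PDK4 was at least 28.0-fold higher in pMA than in PIP cells, CPT1A rose 2.91-fold and ACOX3 2.40-fold. Among 18635 gene names with a ratio, 13.5% differed at least 2-fold, 9.92% higher and 3.56% lower in pMA. The median log2 ratio was 0.37 over the 8 genes and 0.12 over all gene names. After scaling to the median of each array the median of all gene names was -0.22 and after scaling to bright spike-ins it was 0.57, so ratios of differentiation are also given relative to it.

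After serotonin, 2 of the 8 genes rose at least 2-fold, PDK4 by 3.76-fold and ACAA1 by 2.15-fold, and none fell. Of 19093 gene names, 6.82% differed at least 2-fold, 2.08% higher and 4.74% lower. The median log2 ratio was -0.03 over the 8 genes and 0.01 over all gene names. After TNF-α only PDK4 among the 8 passed the cutoff, and it fell 2.81-fold. Of 19785 gene names, 3.55% differed at least 2-fold, 2.21% higher and 1.34% lower. The median log2 ratio was 0.01 over the 8 genes and 0.01 over all gene names. All 3 comparisons use the same array of unstimulated pMA. ACOX3, CPT1A, ACADM, CPT1B and ACAA1 were named by the study from these samples, so their counts are not independent evidence.

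**Figure D1:**
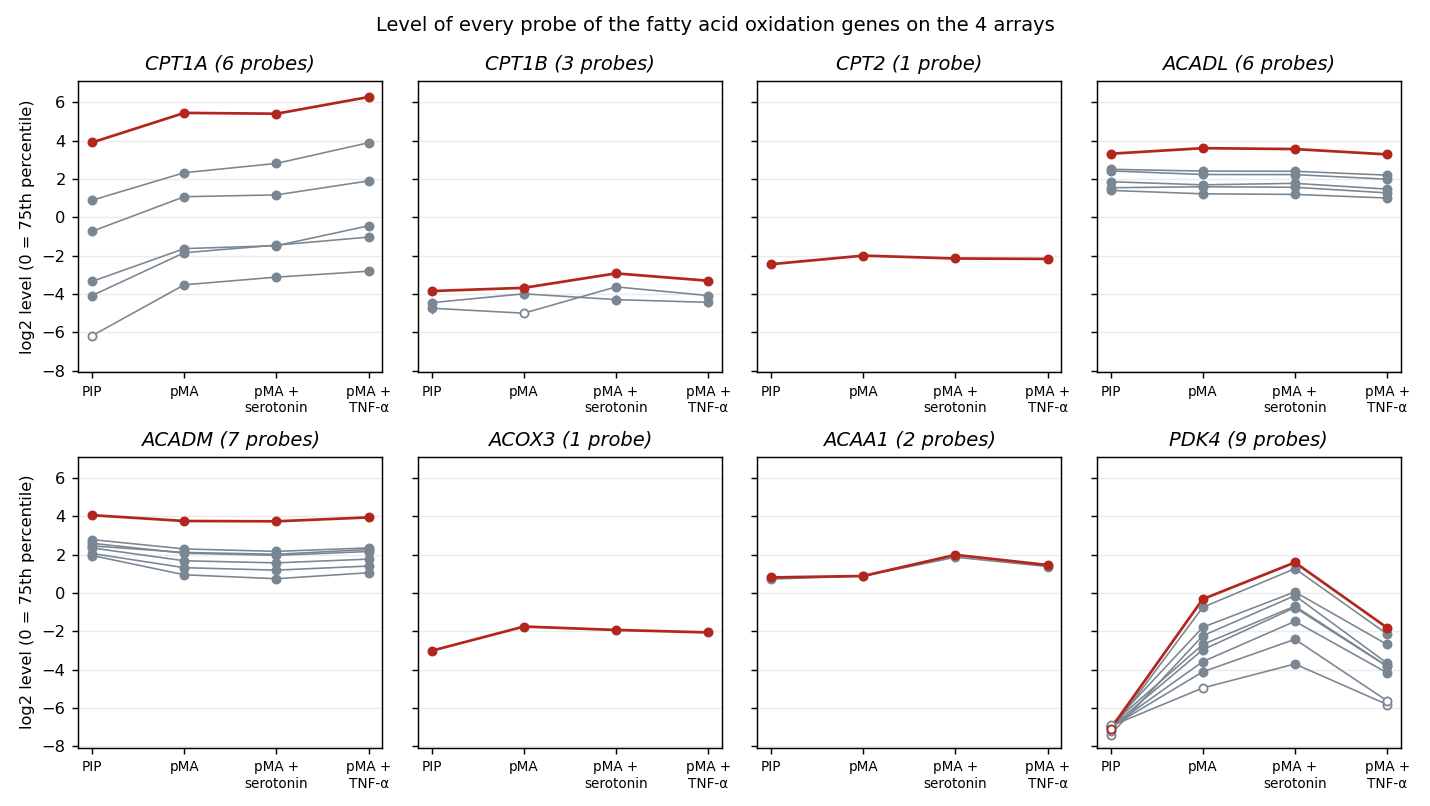
Log2 level (vertical axis, 0 is the 75th percentile of the array) of each probe of the 8 genes on the 4 arrays (horizontal axis). Each line joins 1 probe, red for the probe with the highest mean and grey for the others, open circles were not well above background, and error bars (the scanner's error model, mostly smaller than the symbols) are drawn for values well above background. All 9 probes of PDK4 were open in PIP cells and highest after serotonin, while those of ACADL ran nearly level.

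CPT1A, the liver-type isoform and the regulated entry step of the carnitine shuttle, stepped up in differentiation and stood highest after TNF-α. Its brightest probe, which starts at base 4192, had a processed intensity of 7709 in PIP cells, 20844 in pMA, 23920 after serotonin and 43224 after TNF-α. The levels were 3.90, 5.44, 5.40 and 6.27. The order was thus PIP cells, then pMA with and without serotonin, which did not differ beyond the scanner error, then TNF-α.

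For differentiation the log2 ratio of this probe was 1.54 ± 0.20. All 6 probes of CPT1A rose at least 2-fold, from 1.44 to 2.23 on the log2 scale for the 5 measured on both arrays. The probe nearest to the start of the transcript, at base 120, did not stand well above background in PIP cells, and its rise in pMA was at least 3.05-fold. Relative to the median of all gene names the brightest probe was 1.42 higher, and 1.40 to 1.63 higher over the 5 ways of scaling or background correction. Of all gene names with a ratio, 2.92% were at least as high.

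After TNF-α the brightest CPT1A probe had a log2 ratio of 0.83 ± 0.20, short of the 2-fold cutoff, and 3.22% of all gene names were at least as high. All 6 probes were higher, with values from 0.71 to 1.56. The probes at bases 1374 (1.19 ± 0.21) and 2273 (1.56 ± 0.20) passed the cutoff and the other 4 did not, so whether CPT1A is counted depends on the probe. After serotonin the brightest probe stood at -0.04 ± 0.20 and the 6 probes lay between -0.04 and 0.48, none of them past the cutoff. Set directly against each other, all 6 probes were lower after serotonin than after TNF-α, by 0.31 to 1.08 on the log2 scale.

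CPT1B, the muscle-type isoform, was faint. Its brightest probe, starting at base 2162, had levels of -3.85 in PIP cells, -3.68 in pMA, -2.93 after serotonin and -3.31 after TNF-α, at intensities of 35.8, 37.4, 74.4 and 56.4. No neighbours in the order of its levels differed beyond the scanner error. Its log2 ratio was 0.17 ± 0.32 in differentiation, 0.75 ± 0.29 after serotonin and 0.37 ± 0.30 after TNF-α. The serotonin ratio, between conditions that were not neighbours in the order, was 2.58 times its error. With normexp background correction the serotonin ratio was 0.12 and the TNF-α ratio 0.00.

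The probes of CPT1B did not move together. The probe at base 1360 had log2 ratios of 0.46 ± 0.36, -0.30 ± 0.35 and -0.44 ± 0.35, thus negative after both stimulations. The probe at base 2292 did not stand well above background in pMA. Its lower bounds were 2.01-fold higher after serotonin and 1.47-fold higher after TNF-α. With 2 of 3 probes higher and the other lower in both stimulations, the array gave no common direction for CPT1B.

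CPT2, the enzyme of the inner membrane, had 1 probe, which starts at base 1798. The levels were -2.45 in PIP cells, -2.00 in pMA, -2.15 after serotonin and -2.17 after TNF-α. These 4 values lay within 0.45 of each other, and no neighbours in their order differed beyond the scanner error. The log2 ratios were 0.45 ± 0.22, -0.15 ± 0.22 and -0.17 ± 0.21, none past the cutoff. PIP cells and pMA, at the ends of the order, differed by 2.06 times the scanner error.

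ACADL, the long-chain acyl-CoA dehydrogenase, was among the steadiest of the 8 genes. The brightest of its 6 probes, at base 1549, had levels of 3.32 in PIP cells, 3.61 in pMA, 3.56 after serotonin and 3.28 after TNF-α. In differentiation its log2 ratio was 0.29 ± 0.20, while 4 of the 6 probes were negative and the lowest was -0.19. After scaling to the median the brightest probe stood at -0.06 and after scaling to spike-ins at 0.72, so the sign depended on the probe and on the scaling.

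After serotonin the probes of ACADL lay between -0.05 and 0.08. After TNF-α all 6 were negative, within a narrow span from -0.32 to -0.21, each 1.04 to 1.59 times its scanner error. The differences were far under 2-fold, and 3 of the probes overlap on the transcript, so the 6 values are not separate measurements.

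ACADM, the medium-chain acyl-CoA dehydrogenase, acts on fatty acids of the length of octanoate, which was in the differentiation medium. The brightest of its 7 probes, at base 1690, had levels of 4.06 in PIP cells, 3.75 in pMA, 3.74 after serotonin and 3.94 after TNF-α. The order was pMA with and without serotonin, then TNF-α, then PIP cells, and no neighbours differed beyond the scanner error.

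In differentiation all 7 probes of ACADM were negative, and the value depended on the place of the probe. The log2 ratio was -1.01 ± 0.20 at base 927, past the cutoff, -0.74 at 1128, -0.67 at 1190, -0.49 at 1219, -0.34 at 1301, -0.51 at 1303 and -0.30 ± 0.20 at 1690. Across these probes, which share the RNA and the arrays, Spearman's rho with the position was 0.89 and Pearson's r was 0.87. The probes at bases 1301 and 1303 overlap on the transcript, as do those at 1190 and 1219, so the 7 values are not separate measurements. Over 148 genes with at least 6 measured probes on 1 transcript the median rho was 0.20, and 5.41% had a rho as high. The share of G and C was 43.3% in the probe at base 927 and 35.0% in that at 1690, and its part in the result was not tested. The 2 probes are shown by their first 30 bases, in lower case as no part is singled out.
ACADM, start at base 927: aggaaaacttttggaaagctgctgcagagc
ACADM, start at base 1690: gccagtgattttgtagacttaagggtttta

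Relative to the median of all gene names the brightest ACADM probe was 0.43 lower in pMA. Over the 5 ways of scaling or background correction it was 0.21 to 0.48 lower than that median, although the ratio itself was 0.12 after scaling to spike-ins. After serotonin the 7 probes lay between -0.20 and -0.02 and after TNF-α between 0.05 and 0.19, with opposite signs in all 7 and none past the cutoff. The largest of these differences were about as large as the scanner error of 0.20.

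**Figure D2:**
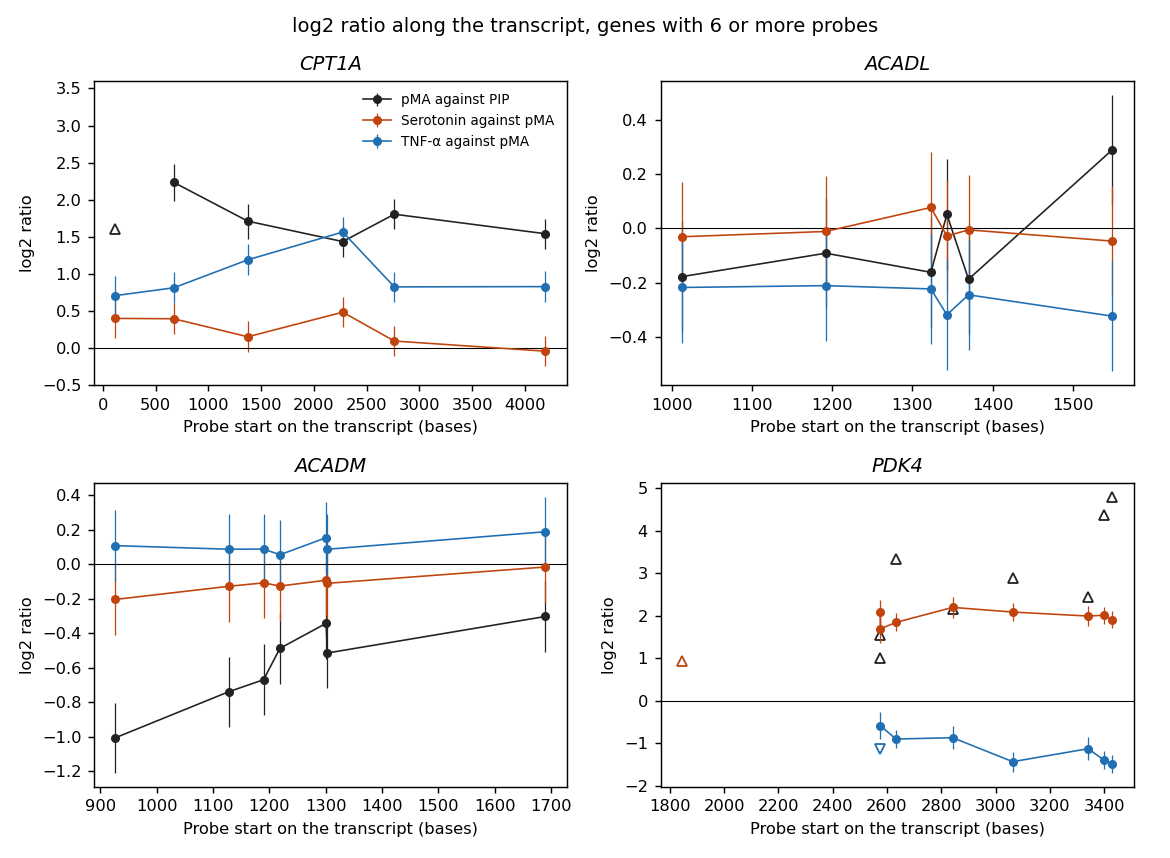
Log2 ratio (vertical axis) of each probe against the start of the probe on the transcript in bases (horizontal axis) for CPT1A, ACADL, ACADM and PDK4, in differentiation (black), after serotonin (orange) and after TNF-α (blue). Circles with bars are measured ratios with the scanner error, triangles are lower bounds of a rise (upward) or a fall (downward). In ACADM the black values go from -1.01 at base 927 to -0.30 at base 1690.

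ACOX3, a peroxisomal acyl-CoA oxidase for branched fatty acids, had 1 probe, at base 689. The levels were -3.01 in PIP cells, -1.75 in pMA, -1.93 after serotonin and -2.06 after TNF-α. PIP cells stood apart at the low end and no neighbours among the other 3 differed beyond the scanner error. The rise in differentiation was 1.26 ± 0.22 on the log2 scale and 5.48% of all gene names were at least as high. It was 0.91 after scaling to the median and 0.80 with normexp, both under 2-fold. After serotonin the log2 ratio was -0.18 ± 0.21 and after TNF-α -0.31 ± 0.21.

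ACAA1, the peroxisomal thiolase that closes each turn of the peroxisomal pathway, was level in differentiation and higher after both stimulations. The brighter of its equal probes had levels of 0.81 in PIP cells, 0.89 in pMA, 1.99 after serotonin and 1.46 after TNF-α, and the repeat had intensities of 851, 883, 2062 and 1456. PIP cells and pMA did not differ beyond the scanner error, whereas TNF-α stood above both and serotonin above TNF-α.

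After serotonin the log2 ratio of ACAA1 was 1.10 ± 0.20 for the one probe, past the cutoff, and 0.98 ± 0.20 for its repeat, just under it. Over the 5 ways of scaling or background correction the former lay between 1.05 and 1.22, and 1.60% of all gene names were at least as high. After TNF-α the same probes gave 0.57 ± 0.20 and 0.50 ± 0.20, both under the cutoff. In differentiation they gave 0.07 ± 0.20 and 0.16 ± 0.20. The repeat differed by 0.08 to 0.12 from the first probe, less than either rise.

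By the brightest probe of each gene, PDK4 differed most of the 8 in each comparison. Its brightest probe, at base 3429, had an intensity of 3.81 in PIP cells, too dim to stand well above background, 384 in pMA, 1708 after serotonin and 160 after TNF-α. The levels were -7.08, -0.32, 1.59 and -1.81. The order was PIP cells, TNF-α, unstimulated pMA and serotonin, and the last 3 each differed from their neighbour beyond the scanner error.

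None of the 9 PDK4 probes was well above background in PIP cells. In pMA 8 of them were, and they were at least 2.03-fold to at least 28.0-fold higher than in PIP cells, the bound depending on how bright the probe was. The probe at base 1846 was well above background only after serotonin. A bound as high as that of the brightest probe was reached by 0.0268% of all gene names.

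After serotonin the 8 measured probes of PDK4 rose by 1.70 to 2.20 on the log2 scale, with a mean of 1.98 and a standard deviation of 0.16 between probes. The brightest had 1.91 ± 0.20, and 0.34% of all gene names were at least as high. The probe at base 1846 was at least 1.91-fold higher. The nearly equal probes at bases 2575 and 2576, whose ends are shown above, gave 2.10 ± 0.28 and 1.70 ± 0.33, and were thus 0.40 apart.

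After TNF-α every PDK4 probe with a ratio was lower than in unstimulated pMA. The 7 measured log2 ratios ran from -1.49 to -0.58, with a mean of -1.11 and a standard deviation of 0.34, and the probe at base 2576 was at least 2.20-fold lower. Including the latter, 5 of 8 probes fell at least 2-fold, and of all gene names 0.248% were at least as low as the brightest probe. The probe closest in sequence to that at 2576 stood at -0.58 ± 0.33, the value of this gene closest to 0. The 7 values became more negative along the transcript, with a Spearman's rho of -0.86 and a Pearson's r of -0.85. Over 148 genes the median rho was -0.36, and 87.2% had a rho at least as high as that of PDK4. The probes at bases 3399 and 3429 overlap on the transcript, as do those at 2575 and 2576, so these values are not separate measurements.

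The stimulated arrays were also compared directly, without the unstimulated one. PDK4 was higher after serotonin than after TNF-α in all 9 probes, by 2.68 to 3.52 on the log2 scale in the 7 that were measured on both. The brightest probe differed 10.6-fold. In ACAA1 the difference was 0.53 ± 0.20, in CPT1B 0.38 ± 0.24 and in CPT1A -0.87 ± 0.20 for the brightest probe. CPT2, at 0.02 ± 0.21, and ACOX3, at 0.13 ± 0.21, lay within the scanner error.

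The marker lists moved with the stimulated arrays as well. After serotonin, 7 of 8 muscle markers with a ratio were lower and 1 higher, with a median of -0.65 on the log2 scale. By their brightest probes ACTA1 (-1.94) and DES (-1.02) fell at least 2-fold, while PAX7 stood at 0.39. Over its probes ACTA1 ran from -2.63 to -0.26 and DES from -2.59 to -0.55. The summed level of the muscle list, in multiples of the 75th percentile, was 644 in PIP cells, 659 in pMA, 177 after serotonin and 612 after TNF-α, and nearly all of it came from ACTA1. The other 9 genes summed to 11.3, 13.8, 8.35 and 14.1. Such a sum adds different probes and follows the brightest of them, so it does not measure the content of a cell type.

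Of the preadipocyte and fibroblast markers, 5 of 6 were lower after serotonin and 1 higher, with a median of -0.89. COL1A1 (-1.41) and DCN (-1.16) fell, while PDGFRB stood at 0.27, and the summed level was 919 in pMA, 608 after serotonin and 766 after TNF-α. In the adipocyte list 6 of 9 were higher and 3 lower after serotonin, with LPL (2.41) and CD36 (1.47) risen and FABP4 (-2.77) fallen. After TNF-α 7 of 9 were higher and 2 lower, with CIDEC (1.94), FABP4 (1.45) and LPL (1.28) risen. The summed adipocyte level was 10.2 in pMA, 24.6 after serotonin and 16.3 after TNF-α.

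The endothelial sum was 1.16 in pMA, 0.48 after serotonin and 1.16 after TNF-α, and PECAM1 fell by 1.46 on the log2 scale after serotonin. The macrophage sum was 2.14, 1.99 and 3.1, mostly from CD14, which stood at 0.66 on the log2 scale after TNF-α. AIF1, the other macrophage marker with a ratio, went the other way, at -0.91 after TNF-α, and stood at -0.96 after serotonin. The epithelial sum was 0.18, 0.13 and 0.15. The part of these differences in the values of PDK4, ACAA1 and CPT1A after stimulation was not tested. On pooled RNA, fewer cells of a type and less RNA per cell cannot be told apart.

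**Figure D3:**
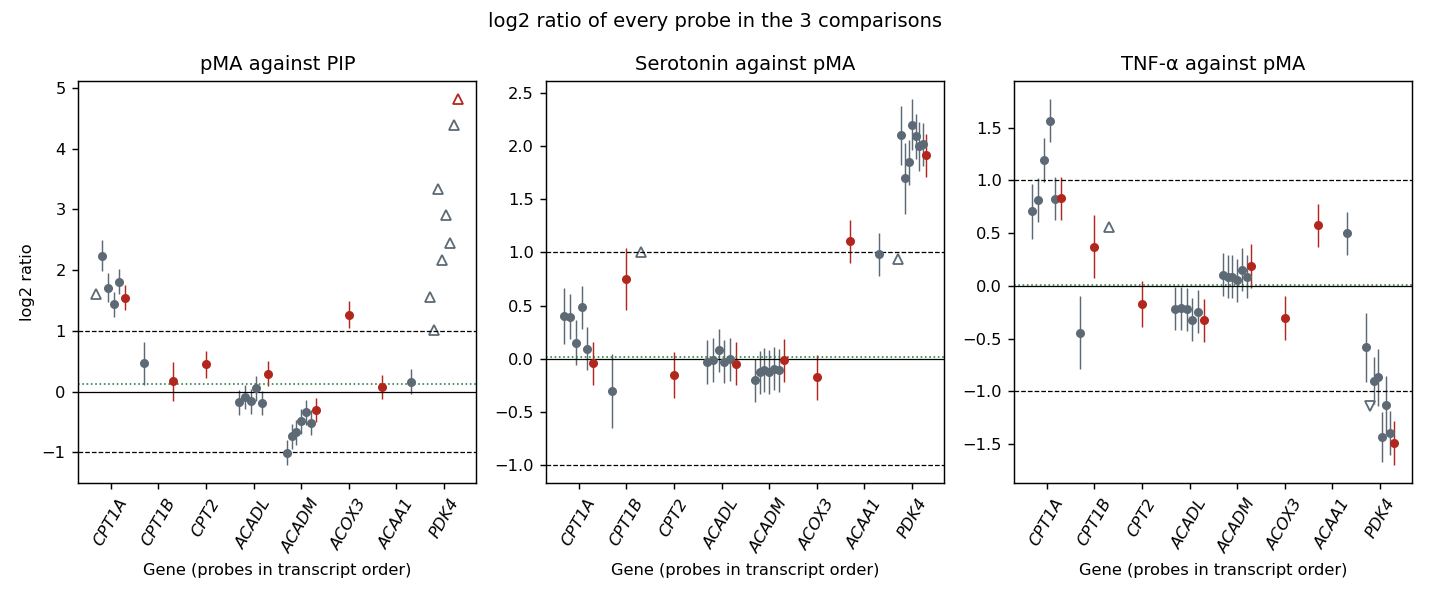
Log2 ratio (vertical axis) of each probe, grouped by gene and placed in transcript order, in the 3 comparisons. Red marks the probe with the highest mean, bars are the scanner error, open triangles are lower bounds, dashed lines mark 2-fold and the green dotted line the median of all gene names. All 8 PDK4 values in differentiation and 8 of 9 after serotonin lie above the upper dashed line, and 5 of 8 after TNF-α lie under the lower one.

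The wider pathway was described by 6 lists written from general knowledge, with 90 genes, of which 59 were on the array by name. By the brightest probe of each gene, 3 of 56 with a ratio rose at least 2-fold in differentiation and none fell. These were ANGPTL4, a secreted inhibitor of lipoprotein lipase (log2 ratio 3.94), TXNIP, which restrains glucose uptake (2.98), and PPARG, the main transcription factor of adipocytes (1.07). ACSL4 and LPIN1 were not counted, but their probes ran from 0.20 to 1.52 and from -0.09 to 1.37, so their place depends on the probe. After serotonin and after TNF-α none of 58 had a ratio or a lower bound past the cutoff in either direction. Of all gene names, 13.5% passed it in differentiation, 6.82% after serotonin and 3.55% after TNF-α. At such shares few genes of lists this short would pass, so the low counts say little about the pathway. The medians over the lists together were 0.10, 0.14 and -0.05, beside 0.12, 0.01 and 0.01 over all gene names.

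In the carnitine shuttle list, 8 of 13 genes had a ratio in differentiation and none passed the cutoff by its brightest probe. Of all gene names 13.5% did. CPT1C, the brain-type isoform, stood at 0.22 in differentiation, 0.45 after serotonin and 0.09 after TNF-α, none of them 2-fold. Of the enzymes that activate fatty acids, ACSL3 had -0.88 after TNF-α, ACSL1 -0.02, ACSL4 0.53 and ACSL5 0.53, so they had no common direction. Over its probes ACSL1 ran from -0.02 to 0.89. The list's median was 0.13, 0.23 and 0.09 in the 3 comparisons.

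The 13 measured genes of mitochondrial β-oxidation all stayed under 2-fold. They lay between -0.26 and 0.75 in differentiation, between -0.32 and 0.36 after serotonin and between -0.45 and 0.12 after TNF-α. HADHA, a subunit of the trifunctional protein that carries long-chain β-oxidation beyond the dehydrogenases, had log2 ratios of 0.04, -0.06 and -0.25. HADH, the short-chain hydroxyacyl-CoA dehydrogenase, had -0.19, -0.12 and -0.08. HADHB and ACAA2, further enzymes of the spiral, and SLC25A20, the carnitine carrier, had no probe by name and were not analysed here.

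Among the genes of peroxisomal oxidation, the pathway of ACOX3 and ACAA1, 11 were measured in each comparison and none passed the cutoff. ABCD2, a peroxisomal transporter, was well above background only in pMA, and its lower bounds of 0.80, -0.79 and -0.92 leave its change unmeasured. The medians of this list were 0.13 in differentiation, 0.11 after serotonin and -0.12 after TNF-α.

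Of 9 measured genes around pyruvate dehydrogenase none passed the cutoff, in contrast with PDK4 by value. PDK1, a kinase of the same family, had log2 ratios of -0.71 in differentiation, -0.90 after serotonin and 0.01 after TNF-α, and PDK2 had 0.46, -0.04 and 0.06. At the 75th percentile scaling PDK4 and PDK1 thus had opposite signs in differentiation and after serotonin. Among the regulators, PPARA, a transcription factor for genes of fatty acid oxidation, did not stand well above background in PIP cells or in pMA, and did so after both stimulations at levels of -4.52 and -4.48, beside faintest such signals of -5.12 and -5.25 on these arrays. PPARGC1A had no probe by name and was not analysed here. ANGPTL4 stood at 0.21 after serotonin and -0.24 after TNF-α, where PDK4 rose and fell.

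**Figure D4:**
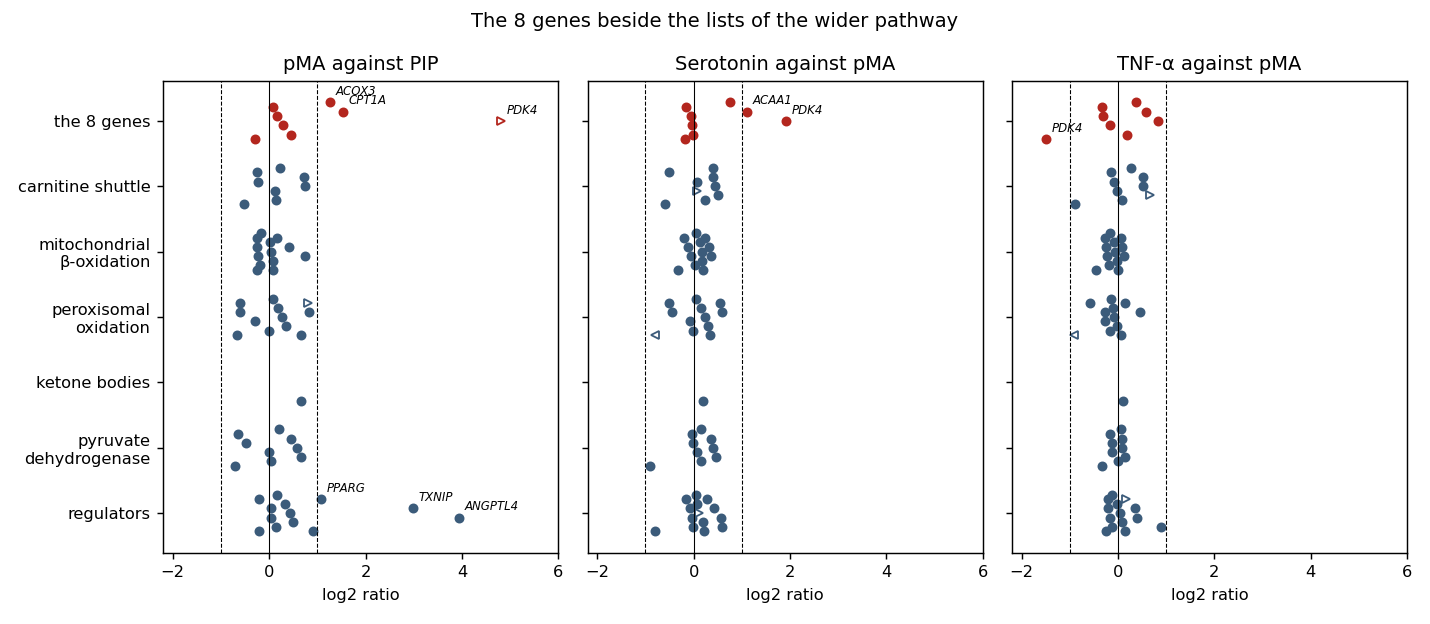
Log2 ratio (horizontal axis) of each gene, by its probe with the highest mean, for the 8 fatty acid oxidation genes (red) and the 6 lists of the wider pathway (blue) in the 3 comparisons. Open triangles are lower bounds, dashed lines mark 2-fold, the vertical scatter within a list has no meaning, and genes past 2-fold are named. In the lists these are ANGPTL4, TXNIP and PPARG, all in differentiation.

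For genes that were well above background on all 4 arrays and varied at least 2-fold, the 5 gene symbols nearest in profile were found among 1100, by the distance between log2 levels centred on their mean over the 4 arrays. CPT1A was nearest to PGF (distance 0.10), ADM (0.17), WISP1 (0.30), SIRPA (0.37) and C1R (0.38). ACAA1 was nearest to MKRN3 (0.11), FBXO30 (0.14), UTP6 (0.15), OLFML2A (0.18) and TBX2 (0.20). ACOX3 was nearest to EXD3 (0.03), FOXH1 (0.08), NLRC5 (0.08), XIAP (0.09) and BMPR2 (0.09). A likeness over 4 arrays rests on 4 values, and PDK4, dim in PIP cells, was left out of it.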

How the data were processed

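The authors deposited, per the file headers, the output of Agilent Feature Extraction 10.7.3.1 for 4 one-color (Cy3) porcine arrays on 1 slide, made from pooled RNA. The deposited values were processed intensities, which the authors obtained by background subtraction in the scanner software. The methods also speak of a mouse array and of labelling in a pair of colors. The deposited series table holds linear values of the same arrays.

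From these intensities, control spots and outlier spots (1 to 12 an array) were dropped, each array was divided by its 75th percentile, log2 was taken and spots of a probe were averaged. Of several probes of a gene, the one brightest on average stood for the gene. Where only 1 side of a ratio was well above background, the dim side was set no lower than the faintest such signal of its array, which gives a lower bound. Where neither was, no ratio was made. Genes were counted at 2-fold. The methods set this fold together with a p-value, which was not used here, since no test was run with 1 array a group, and the number of arrays limits the precision. Neighbouring conditions were ordered at 1.96 times the scanner error. Position on the transcript is the start given in the files.

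Members and lists were chosen with earlier results of these data known. Named were all probes of the members, each pathway gene past 2-fold, and genes fixed by role. Some genes of the lists are not reported here. Gene names are those of the array design, 6249 of which were symbols in a current table. Alternatives were scaling to the median, quantile normalization, scaling to 5 bright spike-ins, normexp background correction (limma 3.58.1, R 4.3.3, offset 50), other filters on dim probes, the median over probes and cutoffs of 1.5-fold and 4-fold. The steps were tested on simulated data. Python 3.11.15, pandas 2.3.3, numpy 2.4.6, scipy 1.17.1 and matplotlib 3.10.9 were used.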

Additional observations from a re-analysis of the deposited data

How the results depend on the processing

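With 1 array a group, no setting gives a replicate check. The count of 3 genes at 2-fold in differentiation became 2 after scaling to the median, with normexp (ACOX3 under the cutoff in both) and with probes required well above background on all 4 arrays, which leaves out PDK4. That last filter also left 1 gene after serotonin (ACAA1) and 0 after TNF-α, out of the 7 other genes. At 1.5-fold the TNF-α count was 2, CPT1A higher and PDK4 lower. At 4-fold the counts were 1 in differentiation, 0 after serotonin and 0 after TNF-α. The median log2 ratio of the genes in differentiation was 0.0193 after scaling to the median and 0.794 after scaling to spike-ins, beside 0.369, and followed the median of all genes. Of 54 recomputed counts and medians 46 stayed within 1.5 times or within the standard deviation of repeated spots. No ratio past 2-fold changed sign in any setting. PDK4 ranged from 2.67 to 6.76 in differentiation, where PIP cells were dim and the value is a lower bound in most settings. The serotonin ratio of PDK4 ranged from 1.75 to 2.03 and its TNF-α ratio from -1.57 to -1.13. An alternative chosen after seeing the data, the log2 of the series table, which was found to be linear, kept all counts. No paired analysis was possible because each group has 1 array. PDK4 in PIP cells and most of CPT1B lay near or under the background limit, which bounds what their ratios can show.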

Other observations

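Some probes carry the name of a sequence cluster whose description in the files calls it similar to one of these genes, and they were looked up after the values of the genes had been seen. A CPT2-like cluster had levels of 1.04 in PIP cells, 0.70 in pMA, 0.46 after serotonin and 0.35 after TNF-α. Its log2 ratio in differentiation, -0.34 ± 0.20, had the opposite sign to the 0.45 ± 0.22 of the probe named CPT2. A PDK4-like cluster was well above background only after serotonin, at a level of -2.65, and was at least 3.39-fold higher there than in unstimulated pMA. A CPT1-like cluster had levels of -4.12, -2.78, -2.80 and -2.15 on the 4 arrays, with log2 ratios of 1.34 ± 0.32 in differentiation, -0.01 ± 0.25 after serotonin and 0.63 ± 0.24 after TNF-α.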
